A study of Homo sapiens with 6 samples.

Results

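The genes described here are those of the DNA replication machinery and of deoxynucleotide synthesis, followed in CAL62 cells exposed to erianin. They were chosen as a list of 44 symbols by function, from origin licensing to maintenance methylation, with earlier results of these data known. Each symbol was matched to a row of the expression tables through its Ensembl identifier. Of the 44 genes, 43 matched, out of 39168 identifiers in the tables, and all 43 passed the low-count filter of both comparisons below. UHRF1, a cofactor of maintenance DNA methylation, was not analysed here.

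CAL62 is a cell line from a human anaplastic thyroid carcinoma (ATC), and the labels give its genotype as wild type. Cells received 50 nM erianin, a bibenzyl compound from Dendrobium orchids, or an equal amount of the solvent DMSO, and RNA was taken after 48 h. There were 3 libraries of each kind, all from the same line, at 1 dose and 1 time point. The labels do not say whether the replicates were separate cultures, so p-values measure only the spread between these libraries.

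Chromosomal DNA is copied once per cell cycle. The origin recognition complex, with CDC6 and CDT1, loads the MCM2-7 helicase onto DNA in G1 phase. CDC45, the GINS complex and MCM10 then turn that helicase on in S phase. Polymerase alpha with primase starts each strand, the sliding clamp PCNA is loaded by replication factor C, and polymerases delta and epsilon extend the strands with deoxynucleotides made by ribonucleotide reductase, thymidylate synthase and thymidine kinase. Many of these genes are transcribed at the G1 to S transition by E2F factors, which is why their RNA levels are often read as a sign of proliferation in tumour cells.

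Library depth ranged from 25776301 to 34107727 counts on named genes, and the 43 members together took between 0.876% and 0.92% of the counts of a library. The lowest count of any member in any library was 108. The cells carried the keratins of an epithelial line, with 36829 to 50108 counts of KRT8, but of the other epithelial markers EPCAM had only 433 to 816 counts and CDH1, which encodes E-cadherin, 0 to 9. PAX8, a thyroid transcription factor, had 14680 to 23024 counts. NKX2-1 and TSHR, which mark differentiated thyroid cells, had 0 counts in every library, and so had the fibroblast marker DCN. The 5 immune markers had at most 6 counts and the 4 endothelial markers at most 28, and of the fibroblast markers COL1A1 had 779 to 1173 counts and the others at most 12. PAX8 was lower in erianin (log2 fold change -0.66, edgeR adjusted p = 0.00403), and its part in the members' results was not tested.

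DMSO replicate 3 stood apart from the other controls. It lay above DMSO replicates 1 and 2 in 25 members, below both in 15 and between them in 3. The biological coefficient of variation, the fitted spread between replicates over all genes, was 0.139 in the full set and 0.0421 once DMSO replicate 3 was removed. Counts of calls are therefore given with that library (12821 genes tested) and without it (13053 genes tested). Levels are CPM, counts scaled to the TMM-adjusted library size, differences are log2 fold changes of erianin over DMSO with the standard error (SE), and a gene was called at a Benjamini-Hochberg adjusted p under 0.05 in edgeR's quasi-likelihood test.

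With all 6 libraries, 5 of the 43 members fell and 0 rose. In RNA from whole cultures, fewer cells in S phase and less RNA per cell cannot be told apart. Those that fell were POLD2 and POLA2 among the polymerases, the ligase LIG1, the helicase activator CDC45 and the helicase subunit MCM5. Over all genes tested, 7.69% were called lower and 7.22% higher, so the members' 11.6% stood beside 14.9% of all genes called in either direction. The median log2 fold change of the members was -0.026, against 0.0014 over all genes. At an unadjusted p under 0.05 there were 9 lower and 5 higher members in edgeR, beside 15.6% and 15.3% of all genes. DESeq2 called 7 lower and 2 higher, beside 7.82% and 6.98% of all genes.

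**Figure D1:**
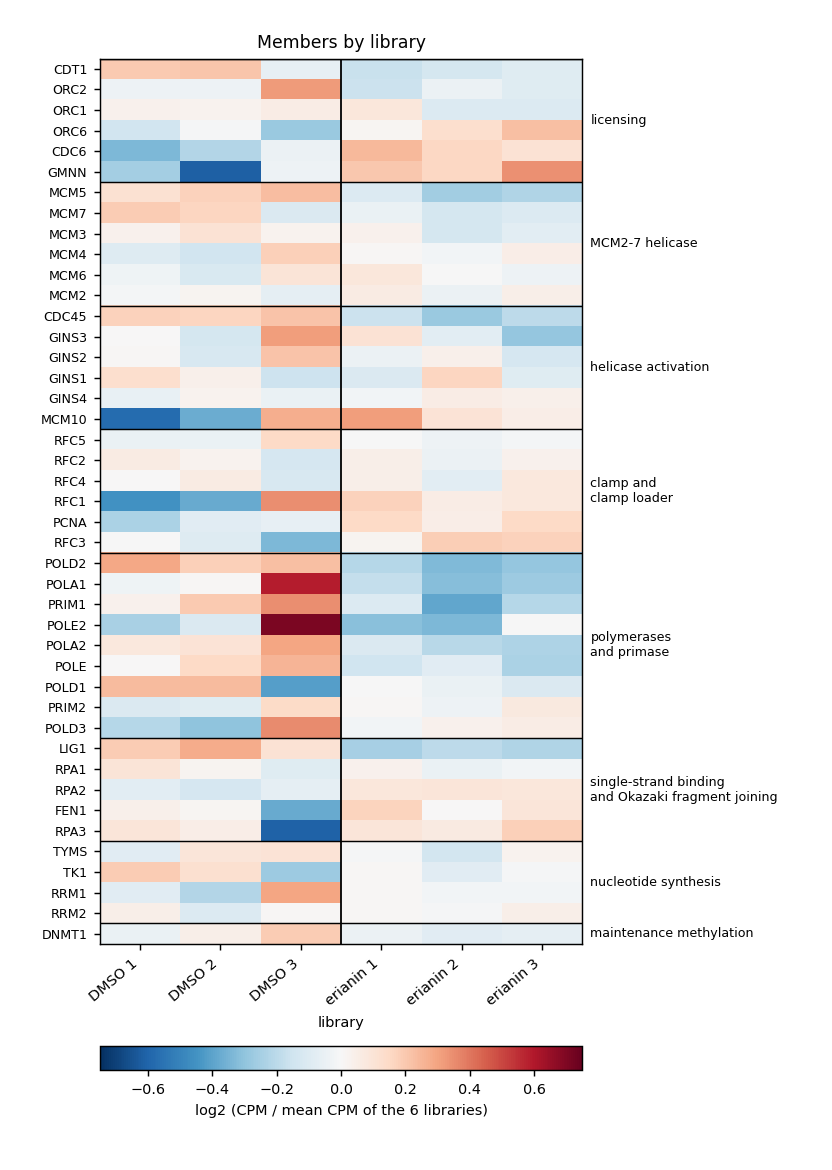
Each row is 1 of the 43 members, grouped by role, and each column 1 of the 6 libraries, with the colour giving log2 of the library's CPM over the gene's mean CPM in the 6 libraries (blue lower, red higher). DMSO replicate 3 differs in colour from DMSO replicates 1 and 2 in many rows, while POLD2, LIG1, CDC45, MCM5 and POLA2 are red in all 3 DMSO libraries and blue in all 3 erianin libraries.

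With DMSO replicate 3 left out, 23 of the 43 members were called, or 53.5%, beside 55.2% of all genes tested. In that comparison 13 members fell, with a background of 27.7% of all genes called lower. The other 10 rose, with a background of 27.5% called higher. The 5 members called lower with all libraries were also called lower without DMSO replicate 3. By sign alone, 21 members were lower and 17 higher in both comparisons, and 5 changed sign. The split of calls also moved with the scaling: on the authors' TPM, which scale counts by gene length and library, limma called 1 member lower and 5 higher with all 6 libraries, beside 2.34% and 17.3% of all genes. The median of all genes was itself 0.175 higher in erianin on that scale (log2).

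The differences were small in size. Only POLD2 passed the adjusted p and an absolute log2 fold change over 0.5 with all 6 libraries, beside 8.73% of all genes tested. Without DMSO replicate 3 the same rule was met by POLD2 on the lower side and by GMNN, MCM10 and RFC1 on the higher side, beside 17.5% of all genes. The 95% interval of the log2 fold change lay wholly between -0.5 and 0.5 for 26 members with all libraries, against 38.5% of all genes, and for 35 members without DMSO replicate 3, against 53.0% of all genes. The members also had a smaller SE, with a median of 0.10 against 0.14 over all genes with all libraries. The CPM values of the 3 DMSO and 3 erianin libraries did not overlap in 16 members (38.7% of all genes), of which 10 were lower in erianin (19.3% of all genes). Against DMSO replicates 1 and 2 alone, 13 members were lower in erianin without overlap (33.2% of all genes).

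**Figure D2:**
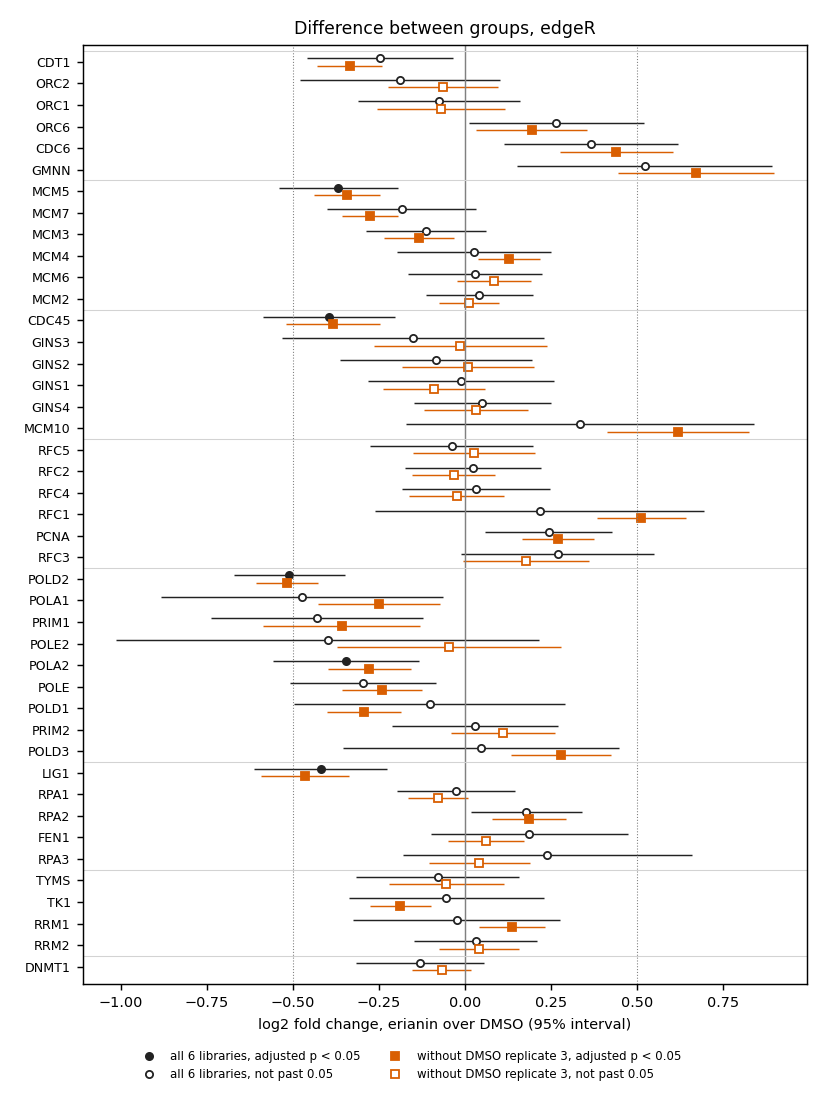
Log2 fold change of erianin over DMSO (x axis) with its 95% interval for each of the 43 members (y axis, grouped by role), with all 6 libraries (circles) and without DMSO replicate 3 (squares); filled symbols have an adjusted p under 0.05 and dotted lines mark -0.5 and 0.5. There are 5 filled circles, all left of 0, and 23 filled squares, 13 left and 10 right of 0, with shorter intervals.

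**Figure D3:**
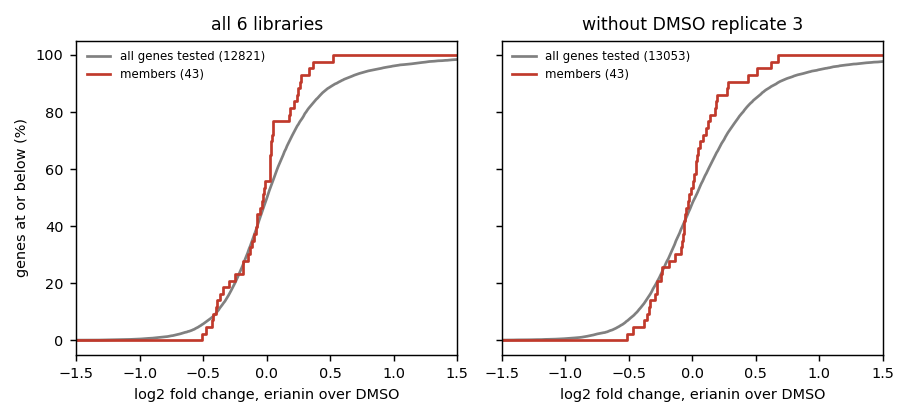
Cumulative share of genes (y axis, percent) at or below each log2 fold change (x axis) for all genes tested (grey) and for the 43 members (red), with all 6 libraries on the left and without DMSO replicate 3 on the right. The curves cross the middle close to 0 in both panels, and no member lies beyond -0.52 or 0.67 while the tails of all genes go further.

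The shapes of these distributions say how the members sat among other genes. With all 6 libraries the members ran from -0.51 for POLD2 to 0.52 for GMNN, whereas all genes ran from -3.21 to 7.22. A range widens with the number of genes and with their SE, so these ranges are not like for like. The median SE was 0.10 for the members and 0.14 for all genes. The median absolute log2 fold change was 0.18 for the members and 0.22 for all genes.

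Promoter sequences show what the members share that the list itself did not use. RefSeq promoters on GRCh38.p14, 250 bases before to 50 after the gene start, were found for 37 of the 43 members. The E2F letters TTTCCCGC, TTTCGCGC, TTTGCCGC or TTTGGCGC, read on both strands, occurred in 19 of these 37 (51.4%), against 3.31% of 35116 promoters and 5.40% of the promoters of 15843 coding genes. The letters CCAAT were held by 23 of the 37 (62.2%), against 34.6% of all promoters and 42.1% of coding genes, and the letters TTTGAA, known as the CHR element of G2 and M phase genes, by 1 of the 37 (RRM1, 2.7%), against 15.2% and 15.8%. A match is a description of the sequence and not a bound site.

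Of the members called lower with all libraries, 4 had a promoter sequence and MCM5 had none. LIG1 and POLA2 held E2F letters, while CDC45 and POLD2 held CCAAT and no E2F letters in this window. The letters are shown for LIG1 and POLA2 in 30 bases around the match, which falls in the first exon of a longer transcript in GENCODE 29, and for MCM6, chosen after its values were seen because it held most matches, in the 250 bases before the start. Capitals mark the E2F letters on either strand, and in MCM6 a forward and a reverse match overlap at each of the capital stretches. The stretches are chr19:48170440-48170469 (minus strand) for LIG1, chr11:65261898-65261927 (plus strand) for POLA2 and chr2:135876444-135876693 (minus strand) for MCM6.
LIG1: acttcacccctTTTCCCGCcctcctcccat
POLA2: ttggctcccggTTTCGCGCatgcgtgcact
MCM6: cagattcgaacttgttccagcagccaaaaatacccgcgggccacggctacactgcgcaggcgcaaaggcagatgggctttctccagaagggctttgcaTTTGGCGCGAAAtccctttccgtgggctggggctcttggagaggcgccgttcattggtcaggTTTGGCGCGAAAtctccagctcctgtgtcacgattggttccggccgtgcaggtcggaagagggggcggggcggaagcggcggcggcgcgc

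The match began 114 bases before the start in LIG1 and 53 in POLA2. MCM6, with 4 matches, was not called in either comparison. The 19 members with E2F letters had a median log2 fold change of -0.11 with all libraries and the 18 without had -0.026, with 2 members called lower in each set. Without DMSO replicate 3 the medians were -0.055 and -0.029, with 7 lower and 3 higher calls among those with the letters and 5 lower and 4 higher among those without. Over all genes, 27.7% were then called lower and 27.5% higher.

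The polymerases and primase held the largest decrease. POLD2 encodes the second subunit of polymerase delta, which extends the lagging strand, and lies on chromosome 7 at 44114681 to 44124358 (GRCh38, minus strand). It measured 328, 303 and 313 CPM in the DMSO libraries, in the order of replicates 1 to 3, and 231, 213 and 219 CPM in the erianin libraries, in the same order, which holds for all values below. Every erianin library was below every DMSO library, and DMSO replicate 3 sat between the other DMSO libraries. The log2 fold change was -0.51 ± 0.070 (SE; adjusted p = 0.00556), a ratio of 0.702, and without DMSO replicate 3 it was -0.52 ± 0.044 (adjusted p = 9.65e-12). Leaving out each of the 6 libraries in turn kept it between -0.55 and -0.48, called in 4 of the 6, with an adjusted p of 0.0521 at most.

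Within polymerase delta the values of the other subunits depended on the control library. POLD1, the catalytic subunit, had 75.3, 75.4 and 48.1 CPM in DMSO and 63.7, 61.8 and 59.4 CPM in erianin, so that DMSO replicate 3 lay far below every other library. It was not called with all libraries (-0.10 ± 0.17, adjusted p = 0.732) and fell without DMSO replicate 3 (-0.29 ± 0.053, adjusted p = 1.95e-05), a call that was lost after each library's trend on GC content was removed (-0.079, adjusted p = 0.23). Without DMSO replicate 3 that trend differed between the groups, so library bias and a GC-linked treatment difference cannot be told apart. POLD3, an accessory subunit, went the other way from POLD1, with 27.2, 25.6 and 40.3 CPM in DMSO and 31.1, 32.3 and 32.8 CPM in erianin. DMSO replicate 3 was here the highest of the 6 libraries, and POLD3 rose in the comparison without it (0.28 ± 0.072, adjusted p = 0.00132) but not with it (0.047 ± 0.17, adjusted p = 0.888). In TPM, the ratio of POLD2 to POLD3 was 9.7, 9.52 and 6.26 in the DMSO libraries and 5.97, 5.3 and 5.36 in the erianin libraries.

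Polymerase alpha and primase lay lower in erianin in 3 of their 4 genes. POLA2, the accessory subunit that tethers polymerase alpha, lies on chromosome 11 at 65261762 to 65305589 (plus strand) and measured 56.9, 57.9 and 66.1 CPM in DMSO and 49.9, 46.6 and 45.9 CPM in erianin, with no overlap. It fell with all libraries (-0.35 ± 0.091, adjusted p = 0.0426) and without DMSO replicate 3 (-0.28 ± 0.059, adjusted p = 0.000157). When each library was left out in turn, POLA2 was called in 1 fit, that without DMSO replicate 3, with an adjusted p of 0.185 at most. Of its exonic bases, 35.1% are shared with a gene model on the same strand that had 0 counts. POLA1, the catalytic subunit, had 18.5, 19.0 and 28.4 CPM in DMSO and 16.7, 15.1 and 15.6 CPM in erianin. DMSO replicate 3 was the highest by far, and without it POLA1 still fell (-0.25 ± 0.087, adjusted p = 0.0147), whereas with all libraries its difference of -0.47 ± 0.18 was not called (adjusted p = 0.114).

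PRIM1, the catalytic primase subunit that lays down RNA primers, had 11, 12.3 and 13.6 CPM in DMSO and 9.98, 8.19 and 9.22 CPM in erianin, again without overlap. It was called without DMSO replicate 3 (-0.36 ± 0.11, adjusted p = 0.00711) and not with it (adjusted p = 0.0684). PRIM1 shares 16.2% of its exonic bases with other genes on the same strand, among them the abundant NACA, so the PRIM1 counts are less certain. PRIM2, the other primase subunit, was not called in either comparison (0.029 and 0.11).

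Polymerase epsilon extends the leading strand. Its catalytic subunit POLE had 72.3, 79.9 and 86.0 CPM in DMSO and 65.0, 67.8 and 61.2 CPM in erianin, which did not overlap, and it fell without DMSO replicate 3 (-0.24 ± 0.057, adjusted p = 0.000513) but was not called with it (adjusted p = 0.0687), nor after the GC trend was removed in the smaller set (-0.12, adjusted p = 0.0763). POLE2, its accessory subunit and the lowest member of this group, had 4.43, 4.87 and 8.57 CPM in DMSO and 4.22, 4.15 and 5.22 CPM in erianin. It was not called in either comparison, and its log2 fold change moved from -0.40 to -0.047 when DMSO replicate 3 was left out. Over the 9 polymerase and primase genes, 2 were called lower with all libraries, beside 7.69% of all genes. Without DMSO replicate 3, 6 were lower and 1 higher, beside 27.7% and 27.5% of all genes. The group's summed level was 618, 603 and 634 CPM in DMSO and 498, 475 and 476 CPM in erianin. POLD2 made up 69.4% of the difference between the group means of that sum, and the other 8 genes summed to 290.2, 299.8 and 320.3 CPM in DMSO and 267, 262 and 257 CPM in erianin. Per length, POLD2 was the most abundant of the 9 both in the authors' TPM and in CPM per kilobase of GENCODE exon.

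**Figure D4:**
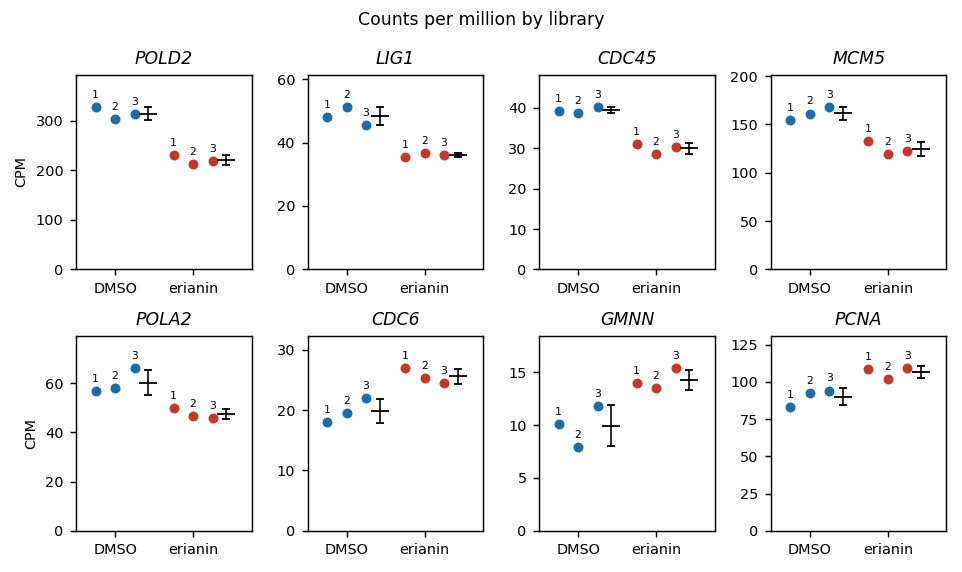
CPM (y axis, from 0) of 8 members in the DMSO (blue) and erianin (red) libraries, with the replicate number above each point and, to the right of each group, the mean ± SD of 3 libraries. POLD2, LIG1, CDC45, MCM5 and POLA2 are lower in all 3 erianin libraries than in any DMSO library, and CDC6, GMNN and PCNA are higher.

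Lagging-strand pieces, or Okazaki fragments, are trimmed by FEN1 and sealed by LIG1. LIG1, DNA ligase 1, lies on chromosome 19 at 48115445 to 48170603 (minus strand) and measured 48.2, 51.2 and 45.6 CPM in DMSO and 35.5, 36.8 and 36.1 CPM in erianin. The 3 erianin libraries were close together and all below the lowest DMSO library, which was DMSO replicate 3. LIG1 fell with all libraries (-0.42 ± 0.083, adjusted p = 0.0173) and without DMSO replicate 3 (-0.47 ± 0.062, adjusted p = 1.33e-07). When each library was left out in turn, LIG1 was called in 1 fit, that without DMSO replicate 3, with an adjusted p of 0.0977 at most. FEN1 had 73.3, 72.3 and 55.0 CPM in DMSO and 80.3, 71.7 and 76.3 CPM in erianin, was not called in either comparison (0.19 and 0.060), and was called higher once the GC trend was removed without DMSO replicate 3 (0.17, adjusted p = 0.00948).

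Replication protein A coats the unwound single strands. RPA1, its largest subunit and among the most abundant members, had 239.7, 227 and 210.4 CPM in DMSO and 229, 217 and 220.3 CPM in erianin, and the groups overlapped. Its difference was -0.026 with a 95% interval of -0.20 to 0.15. RPA2, the middle subunit, had 62.8, 60.8 and 63.3 CPM in DMSO and 70.4, 70.6 and 70.4 CPM in erianin, where the 3 values nearly coincided above all DMSO values. RPA2 rose without DMSO replicate 3 (0.19 ± 0.053, adjusted p = 0.00355) and was not called with it (0.18 ± 0.069, adjusted p = 0.13). RPA3, the smallest subunit, was at 28.1, 27.4 and 17.4 CPM in DMSO, with DMSO replicate 3 far below the rest, and at 28.2, 27.7 and 29.9 CPM in erianin, and it was not called in either comparison.

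Of the 6 subunits of the MCM2-7 ring, 1 was called with all libraries, beside 14.9% of all genes. Without DMSO replicate 3, 3 were lower and 1 higher, beside 27.7% and 27.5% of all genes. MCM5, a helicase subunit on chromosome 22 at 35400063 to 35425430 (plus strand), had 155, 161 and 168 CPM in DMSO and 133, 119 and 123 CPM in erianin, with no overlap. It fell with all libraries (-0.37 ± 0.074, adjusted p = 0.0183) and without DMSO replicate 3 (-0.34 ± 0.047, adjusted p = 2.13e-07). When each of the 6 libraries was left out in turn, it was called in 2 of the 6 fits. MCM7, the most abundant subunit per length, had 586, 575 and 477 CPM in DMSO and 495, 468 and 479 CPM in erianin. DMSO replicate 3 lay within the range of the erianin libraries. MCM7 fell in the comparison without it (-0.28 ± 0.040, adjusted p = 4.64e-07) and was not called with it (-0.18 ± 0.093, adjusted p = 0.226).

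MCM3 had 107, 114 and 107 CPM in DMSO and 108, 96.2 and 99.8 CPM in erianin. It was lower without DMSO replicate 3 (-0.13 ± 0.050, adjusted p = 0.0235), a call that was lost once the GC trend was removed (adjusted p = 0.225). MCM4 went the other way, with 133, 129 and 161 CPM in DMSO and 143, 140.1 and 148 CPM in erianin, between DMSO replicates 1 and 2 below and DMSO replicate 3 above. It was called higher without DMSO replicate 3 (0.13 ± 0.045, adjusted p = 0.0162), and with it the value was 0.026 ± 0.096. MCM2 and MCM6 were not called, with 95% intervals of -0.12 to 0.20 and -0.17 to 0.22 with all libraries. MCM2 shares 23.6% of its exonic bases with genes on the opposite strand, among them TPRA1. The strand setting of the counting is not given in the sources used here.

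Helicase activation carried 1 decrease that was called in both comparisons. CDC45, which joins the MCM ring to form the active helicase, lies on chromosome 22 at 19479459 to 19520612 (plus strand) and measured 39.2, 38.9 and 40.2 CPM in DMSO and 31.1, 28.6 and 30.3 CPM in erianin. The DMSO libraries differed little among themselves, DMSO replicate 3 included, and all lay above the erianin libraries. CDC45 fell with all libraries (-0.39 ± 0.082, adjusted p = 0.0204) and without DMSO replicate 3 (-0.38 ± 0.068, adjusted p = 1.26e-05). When each library was left out in turn, CDC45 was called in 1 fit, that without DMSO replicate 3, with an adjusted p of 0.109 at most. The other subunits of that helicase, GINS1, GINS2, GINS3 and GINS4, were not called in either comparison, with log2 fold changes from -0.15 to 0.050 with all libraries. GINS1, the most abundant of this group in the authors' TPM, had 42.1, 39.6 and 34.7 CPM in DMSO and 35.9, 43.3 and 36.2 CPM in erianin, which overlapped.

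MCM10, a scaffold that helps to start unwinding, depended on the control library. It had 10.2, 11.8 and 18.4 CPM in DMSO and 18.9, 16.3 and 15.8 CPM in erianin. DMSO replicate 3 was at the level of the erianin libraries and the other DMSO libraries were well below. MCM10 rose without DMSO replicate 3 (0.62 ± 0.10, adjusted p = 4.71e-06) and was not called with it (0.33 ± 0.22, adjusted p = 0.342).

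Of the 6 origin licensing genes, edgeR called 0 with all libraries, with 1 lower and 3 higher at an unadjusted p under 0.05, and DESeq2 called 2 higher. Without DMSO replicate 3, 1 was called lower and 3 higher, beside 27.7% and 27.5% of all genes. CDT1, the loader of the MCM ring and the most abundant licensing gene per length, had 121, 122 and 101 CPM in DMSO and 94.3, 96.4 and 99.4 CPM in erianin. All erianin libraries were below all DMSO libraries, with DMSO replicate 3 the nearest to them. CDT1 fell without DMSO replicate 3 (-0.34 ± 0.046, adjusted p = 2.17e-07) and was not called with it (-0.25 ± 0.091, adjusted p = 0.112). With the GC trend removed, its difference without DMSO replicate 3 shrank to -0.12 (adjusted p = 0.032).

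GMNN encodes geminin, which binds CDT1 and blocks relicensing after S phase begins. It had 10.1, 7.92 and 11.8 CPM in DMSO and 14.0, 13.5 and 15.4 CPM in erianin, with every erianin library above every DMSO library. GMNN had the largest increase among the members without DMSO replicate 3 (0.67 ± 0.11, adjusted p = 5.35e-06), and with all libraries its value of 0.52 ± 0.16 was not called (adjusted p = 0.0673). In TPM, the ratio of GMNN to CDT1 was 0.0631, 0.0488 and 0.0879 in the DMSO libraries and 0.112, 0.106 and 0.117 in the erianin libraries. That these ratios did not overlap follows from the CPM values of GMNN and CDT1, as library scaling cancels in a ratio. The GC trend was not removed from these ratios. With it removed, the GMNN difference without DMSO replicate 3 was 0.48.

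CDC6, the partner of CDT1 in loading the helicase, had 18.0, 19.5 and 22.0 CPM in DMSO and 26.9, 25.3 and 24.5 CPM in erianin, again without overlap. It rose without DMSO replicate 3 (0.44 ± 0.081, adjusted p = 2.4e-05), and with all libraries edgeR gave 0.37 ± 0.11 (adjusted p = 0.061), while DESeq2 called CDC6 and GMNN higher. ORC6, a subunit of the origin recognition complex, had 22.5, 24.7 and 20.5 CPM in DMSO and 25.2, 27.1 and 29.1 CPM in erianin. Its increase without DMSO replicate 3 (0.19 ± 0.079, adjusted p = 0.0379) was lost once the GC trend was removed (adjusted p = 0.228). ORC1 and ORC2, further subunits of that complex, were not called in either comparison, with values of -0.075 and -0.19 with all libraries, but ORC2 was called lower in both comparisons with the GC trend removed (-0.28 and -0.27).

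The sliding clamp lay higher in erianin. PCNA, the ring that holds polymerases on DNA and the member with the highest mean TPM, had 83.3, 92.5 and 94.2 CPM in DMSO and 109, 102 and 109 CPM in erianin, with no overlap. It rose without DMSO replicate 3 (0.27 ± 0.052, adjusted p = 4.29e-05) and was not called with it (0.24 ± 0.079, adjusted p = 0.0798). By name PCNA, RPA2 and RRM2 have 3 annotated pseudogenes each, TYMS has 2 and POLD2 has 1, so their counts may hold or lose some reads.

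Of the 5 subunits of the clamp loader, replication factor C, edgeR called 1, in the comparison without DMSO replicate 3, beside 55.2% of all genes. RFC1, its large subunit, had 34.6, 36.4 and 60.2 CPM in DMSO and 53.4, 49.3 and 50.0 CPM in erianin. DMSO replicate 3 was the highest and DMSO replicates 1 and 2 the lowest of the 6 libraries. RFC1 rose without DMSO replicate 3 (0.51 ± 0.064, adjusted p = 3.48e-08), against 0.22 ± 0.20 (adjusted p = 0.524) with it. RFC2, RFC3, RFC4 and RFC5, the small subunits, were not called in either comparison, with values between -0.039 for RFC5 and 0.27 for RFC3 with all libraries.

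Nucleotide synthesis had 0 members called with all libraries in edgeR, 0 at an unadjusted p under 0.05 and 0 in DESeq2. RRM1, the large subunit of ribonucleotide reductase, had 121, 110.0 and 157 CPM in DMSO and 129, 126 and 126 CPM in erianin. The erianin libraries lay above DMSO replicates 1 and 2 and below DMSO replicate 3, so the sign turned between comparisons, from -0.025 ± 0.13 with all libraries (adjusted p = 0.922) to 0.14 ± 0.047 without DMSO replicate 3 (adjusted p = 0.0142). RRM2, its small subunit, which is made in S phase, differed by 0.031 with a 95% interval of -0.15 to 0.21. In TPM, the ratio of RRM2 to RRM1 was 0.502, 0.497 and 0.375 in DMSO and 0.459, 0.462 and 0.479 in erianin, with erianin inside the DMSO range.

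TK1, the thymidine salvage kinase of S phase and the most abundant of the 4 nucleotide genes per length, had 175, 166 and 127 CPM in DMSO and 154, 144 and 152 CPM in erianin. DMSO replicate 3 was the lowest library. TK1 fell without it (-0.19 ± 0.044, adjusted p = 0.000528), was not called with it (-0.055 ± 0.12, adjusted p = 0.808), and was near 0 without it once the GC trend was removed (-0.0088, adjusted p = 0.885). TYMS, thymidylate synthase, differed by -0.080 with a 95% interval of -0.32 to 0.16, and 46.6% of its exonic bases lie opposite other genes. DNMT1, which copies methylation onto the new strand, had 268, 286 and 317 CPM in DMSO and 269, 261 and 265 CPM in erianin, and was not called in either comparison (-0.13 and -0.069).

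The GC content of the members moved with these differences. Each library's counts were set against the GC content of transcripts over all genes, and the trend per 10 points of GC was 0.14 and 0.16 on the log2 scale in DMSO replicates 1 and 2, -0.19 in DMSO replicate 3 and between -0.046 and -0.03 in the erianin libraries. DMSO replicates 1 and 2 thus differed from the erianin libraries in this trend. Removing it may also remove a treatment difference linked to GC content. Over the 43 members, GC content and the log2 ratio of DMSO replicate 3 to the mean of DMSO replicates 1 and 2 had a Pearson r of -0.52 and a Spearman rho of -0.50. The members with the highest ratio were POLE2, RFC1, MCM10, POLD3 and POLA1, and those with the lowest were RPA3, POLD1, TK1 and FEN1. These are values across genes of the same libraries, not across independent samples.

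**Figure D5:**
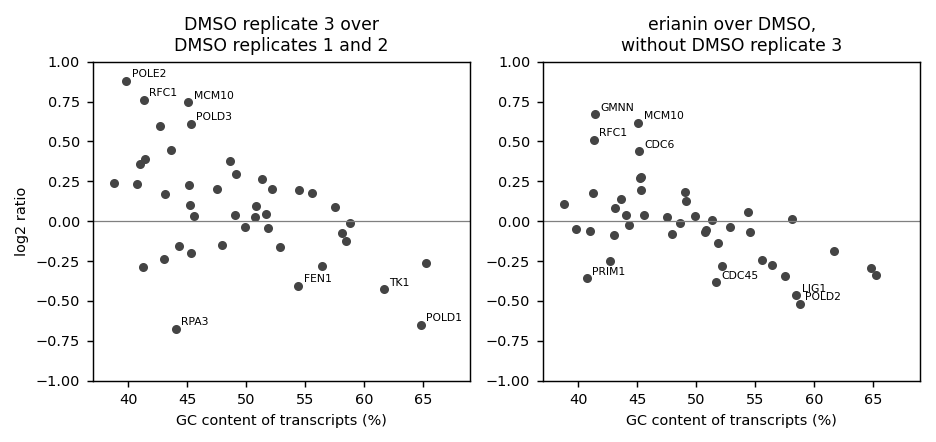
GC content of transcripts (x axis, percent) against the log2 ratio of DMSO replicate 3 to the mean of DMSO replicates 1 and 2 (left) and the log2 fold change of erianin over DMSO without DMSO replicate 3 (right), 1 point for each of the 43 members, with the 4 highest and 4 lowest named. Members of low GC content tend to lie higher in both panels (Spearman rho -0.50 and -0.54).

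In the comparison without DMSO replicate 3, GC content and the fold changes of the 43 members had a Spearman rho of -0.54, which became -0.03 after each library's trend was removed. A rho near 0 is what the removal is built to give, so it is no result about the members. With the trend removed, 9 of the 13 lower calls and 8 of the 10 higher calls remained, and GINS1 and ORC2 were added as lower and FEN1 and MCM2 as higher. The resulting 11 lower and 10 higher members stood beside 23.8% and 22.2% of all genes. With all 6 libraries, removing the trend left 3 of the 5 lower calls, those of POLD2 (-0.45, adjusted p = 0.0126), LIG1 (-0.36, adjusted p = 0.0164) and CDC45 (-0.36, adjusted p = 0.0163). MCM5 and POLA2 then had adjusted p-values of 0.068 and 0.0609, ORC2, POLA1 and PRIM1 were called lower, and CDC6 and GMNN were called higher. These 6 lower and 2 higher members stood beside 9.12% and 9.51% of all genes.

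Other genes of the same pathways were followed from further lists. Beside their edgeR counts stand 14.9% of all genes called with all libraries. Without DMSO replicate 3, 27.5% of all genes were called higher and 27.7% lower. Of 24 other replication factors tested with all libraries (the origin, checkpoint-linked and accessory genes not among the 44), edgeR called 0, with 1 lower and 2 higher at an unadjusted p under 0.05, and DESeq2 called 1 lower and 1 higher. Without DMSO replicate 3, 12 were higher and 4 lower of 25. With the GC trend removed as well, 4 were higher and 2 lower, beside 22.2% and 23.8% of all genes. Of 6 chromatin assembly genes, edgeR called 0 with all libraries, with 1 at an unadjusted p under 0.05, and DESeq2 called 1, while 2 were higher and 1 lower without DMSO replicate 3. With the GC trend removed as well, 1 was higher and 1 lower. Of 8 checkpoint genes 1 was called with all libraries, the kinase WEE1, which delays mitosis, and 4 were higher and 0 lower without DMSO replicate 3. WEE1 had 31.4, 34 and 36.9 CPM in DMSO and 43.5, 43.5 and 43.3 CPM in erianin, all higher than DMSO (0.35 ± 0.090, adjusted p = 0.04). With the GC trend removed WEE1 was not called with all libraries (0.26, adjusted p = 0.0567) and was called without DMSO replicate 3 (0.21, adjusted p = 0.0077). In that last fit 1 of the 8 checkpoint genes was called higher and 0 lower.

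Of 21 other enzymes of nucleotide synthesis, 3 were called higher and 4 lower with all libraries, beside 14.9% of all genes in either direction, and DESeq2 called 3 higher and 7 lower. Without DMSO replicate 3, 4 were higher and 12 lower, beside 27.5% and 27.7% of all genes. Those with the smallest p were GART, PFAS and SHMT1, which serve purine synthesis and the folate cycle. GART had 219, 231 and 227 CPM in DMSO and 185, 178 and 183 CPM in erianin (-0.31 ± 0.063, adjusted p = 0.0186). PFAS had 122, 139.8 and 103 CPM in DMSO and 87.4, 84.0 and 83.2 CPM in erianin (-0.52 ± 0.11, adjusted p = 0.0244). SHMT1 had 63.9, 66.9 and 67.0 CPM in DMSO and 52.5, 44.2 and 51.1 CPM in erianin (-0.42 ± 0.091, adjusted p = 0.0226). IMPDH2, which commits purines to guanine nucleotides, also fell (-0.39), while RRM2B, the p53-linked small subunit of ribonucleotide reductase, PPAT and DCK rose (0.54, 0.42 and 0.41). With the GC trend removed PPAT and DCK were not called, either with all libraries (adjusted p = 0.236 and 0.253) or without DMSO replicate 3 (adjusted p = 0.253 and 0.368), whereas RRM2B was called in both.

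Of 12 tested genes of the E2F and RB family, 2 were called lower and 1 higher with all libraries, beside 7.69% and 7.22% of all genes. Without DMSO replicate 3, 4 were lower and 2 higher, beside 27.7% and 27.5% of all genes. E2F5, a repressor-type E2F, had 23.2, 23.4 and 28.8 CPM in DMSO and 14.4, 16.5 and 14.3 CPM in erianin (-0.74 ± 0.13, adjusted p = 0.0111). E2F7, an atypical repressor of E2F target genes, had 36.0, 38.0 and 51.4 CPM in DMSO and 61.3, 63.5 and 62.6 CPM in erianin (0.58 ± 0.14, adjusted p = 0.0314). TFDP2, a binding partner of E2F proteins, had 95.7, 101 and 113 CPM in DMSO and 78.9, 81.4 and 79.4 CPM in erianin (-0.37 ± 0.083, adjusted p = 0.0263). All 3 genes kept every erianin library outside the DMSO range. E2F1, an activator E2F, was at 44.1, 42.8 and 33.8 CPM in DMSO and 39.2, 38.5 and 39.0 CPM in erianin and was not called with all libraries (-0.048, adjusted p = 0.821), but was called lower without DMSO replicate 3 (-0.16, adjusted p = 0.026).

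Of the 12 listed genes of G2 and M phase, which follows replication, DMSO replicate 3 lay above every other library in 8 and below every other library in 2. Over all genes tested it lay above every other library in 29.7%. MKI67, a proliferation marker, had 118, 124 and 291 CPM in DMSO and 157, 137 and 139 CPM in erianin, and CENPF, a kinetochore gene of G2 and M phase, had 15.1, 15.7 and 38.0 and 19.7, 18.5 and 18.3 CPM. DMSO replicate 3 was the highest library for both. Of the 12 genes, edgeR and DESeq2 each called 0 with all libraries, with 1 lower and 1 higher at an unadjusted p under 0.05. Without DMSO replicate 3, 9 were higher and 1 lower, beside 27.5% and 27.7% of all genes. With the GC trend removed as well, 4 were higher and 0 lower, beside 22.2% and 23.8% of all genes. The part of these genes in the members' results was not tested.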

How the data were processed

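RNA from 3 DMSO and 3 erianin libraries of CAL62 cells was sequenced on a BGISEQ-500 instrument. Raw counts by gene, and TPM values for the same rows, were deposited by the authors. The submitters' processing notes name fastp 0.23.2, STAR 2.7.10, featureCounts 2.0.1 and StringTie 2.2.1 and the build GRCh38 (hg38), and the annotation release and strand setting are not given in the sources used here. The deposited TPM columns summed to between 59.1% (DMSO replicate 3) and 78.3% of their nominal total.

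Of 65807 rows, 26480 without an identifier (at most 0.00515% of the counts of a library) were left out. Where rows shared an identifier, the row with most counts took the symbol. Counts were fitted with edgeR 4.0.16 in R 4.3.3 (TMM, filterByExpr, glmQLFit and glmQLFTest, group only), and p-values were adjusted by Benjamini-Hochberg over all genes tested. The SE was derived from the F statistic. CPM was computed from counts and TMM-scaled library sizes. Coordinates, exon overlaps and GC content came from GENCODE 29. The GC trend was removed with a loess offset (span 0.5). Scripts were tested on simulated data. Alternatives used DESeq2 1.42.0 and limma 3.58.1, the latter on log2 of TPM plus 1 or 0.1.

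The members and lists were chosen with earlier results of these data known, so no pattern here is independent support for an earlier one. The text names every member. It gives values in every library for members called in either comparison, up to the 3 largest log2 fold changes per role and direction, and for the most abundant member of each role. Of the other lists it names up to 3 called genes with the smallest p. POLD1, POLA1 and POLE (past the limit of 3), POLE2, RPA3, FEN1, E2F1, MKI67 and CENPF were given values, and IMPDH2, RRM2B, PPAT and DCK were named, after their values were seen.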

Additional observations from a re-analysis of the deposited data

How the results depend on the processing

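With all 6 libraries, the count of 5 lower members was 7 with DESeq2, 4 with upper-quartile factors or no filter, and 5 with RLE factors or at least 10 counts in every library. It was 1 (POLD2) in each of the 3 limma fits on TPM and 11 with the GC offset and DMSO replicate 3 left out. Over all genes, 5.25% to 7.94% were called lower in the fits with 4 to 7 lower members. The TPM fits had 1.30% to 2.34%, and the fit with 11 had 23.8%. The count of 0 higher members was 2 with DESeq2, upper-quartile factors or the GC offset, 5 in each TPM fit, and 10 with the GC offset and DMSO replicate 3 left out. The shares of all genes called higher were 6.98% to 9.51%, 11.2% to 17.3% and 22.2% in the same order. The count of 1 member (POLD2) past the fold threshold became 2 with DESeq2, the TPM fits, and the GC offset with or without DMSO replicate 3. These were not the same members throughout. With the GC offset and all libraries they were POLA1 and PRIM1 (-0.53 each), with POLD2 at -0.45. With the GC offset and without DMSO replicate 3 they were PRIM1 (-0.57) and MCM10 (0.53), with POLD2 at -0.37. The count became 0 with upper-quartile factors, 5 with no fold threshold and 0 with a threshold of 1. In the TPM fits the members' median was 0.17 and that of all genes 0.175, 0.197 and 0.117.

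Deviations of same-numbered libraries from their group means correlated at 0.0018, 0.031 and -0.03. With 3 libraries per group and DMSO replicate 3 set apart, these values cannot decide whether replicate numbers pair the libraries. With the replicate number as a block, 1 member (POLD2) was called lower, and 4 with the block and the GC offset, beside 2.71% and 5.64% of all genes.

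Leaving out each library in turn gave 0 to 13 lower members, 0 to 10 higher and 0 to 4 past the fold threshold. DMSO replicate 3 gave the upper ends, 13, 10 and 4, and erianin replicates 2 and 3 gave 0 lower each, with 6 at an unadjusted p under 0.05. Lower calls numbered 2 without DMSO replicate 1, and 1 without DMSO replicate 2 or erianin replicate 1. Over all genes the share called lower moved too. It was 3.35%, 3.41% and 27.7% without DMSO replicates 1, 2 and 3, and 1.15%, 1.12% and 0.983% without erianin replicates 1, 2 and 3. The listed genes outside the members had 11 calls with all libraries and 55 without DMSO replicate 3, beside 14.9% and 55.2% of all genes. RRM1 reversed without DMSO replicate 3 (0.14, adjusted p = 0.0142, from -0.025), and was lowest without DMSO replicate 2 (-0.13). The cause of these changes was not tested. Comparisons of 3 libraries per group limit what small differences of low genes such as POLE2 can show.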
